A study of Mus musculus with 3 samples.

Results

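Among the cells released from the inner surface of bone, a set of 10 genes known mainly from muscle was examined: Mlip, Tmem182, Tnni2, Tnnt3, Myl1, Acta1, Ckm, Mybph, Myod1 and Myf5. They were chosen with earlier results of these arrays known, so every value given for them is a description and none is a test. All probe sets whose only gene symbol in the array's annotation was one of these names were taken, which gave 15 of the 45101 probe sets and 10 of the 18194 named genes. The cells came from femurs and tibiae of C57BL/6 mice, were freed with collagenase and were depleted of cells bearing CD45, CD31 or Ter119, which mark leukocytes, endothelium and erythroid cells. They were then sorted into ALCAM+ Sca-1- cells (called ALCAM+ here), ALCAM- Sca-1+ cells (called Sca-1+) and ALCAM- Sca-1- cells (called double-negative). ALCAM mediates adhesion between cells, and Sca-1 is widely used to enrich progenitors. The gate as described named no marker that would remove muscle cells, and the labels used here give neither the age nor the number of mice. Each population was measured on 1 array, so no difference has a replicate check.

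Skeletal muscle contracts when myosin thick filaments pull on actin thin filaments, and troponin on the thin filament lets this happen only when calcium is released. Myod1 and Myf5 encode transcription factors that commit cells to muscle and are found in its stem cells and myoblasts, whereas Acta1, Ckm, Tnni2, Tnnt3, Myl1 and Mybph encode parts of the mature fibre. Mlip encodes a protein that binds lamin A/C at the nuclear envelope, and Tmem182 encodes a membrane protein that restrains the fusion of myoblasts. Muscle lies directly on the outer face of long bones.

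Values are the deposited signals on a linear scale. A signal of 75.4, the median over all probe sets other than controls, served as the floor below which values were given no order, and where several probe sets measured a gene the brightest stood for it. Genes counted as higher or lower if they differed at least 4-fold after signals below the floor were raised to it. A fold against a signal that did not exceed the floor was taken against the floor itself and is a lower bound. As a yardstick of technical scatter, the differences read by 2 probe sets of the same gene lay within 2.13-fold of each other for 95% of 4154 genes between ALCAM+ and double-negative cells, within 2.64-fold between Sca-1+ and double-negative cells and within 2.97-fold between ALCAM+ and Sca-1+ cells. Variation from mouse to mouse or from sort to sort is no part of this yardstick. It was drawn from genes with 2 probe sets above the floor on all 3 arrays. Every member was below the floor in Sca-1+ cells, so no member was part of it. The sorted marker itself followed the labels: Alcam gave 267.7 in ALCAM+ cells, 41.1 in Sca-1+ cells and 36.3 in double-negative cells. Ptprc, the gene of the depleted CD45, gave 11.6, 163 and 159, above the floor in Sca-1+ and double-negative cells, and Pecam1, the gene of CD31, stayed at 9.1 or below. Because these are bulk samples scaled to a common mean, fewer cells of a type and less RNA per cell cannot be told apart.

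The 10 genes fell into 3 patterns. Mlip and Tmem182 were bright in ALCAM+ cells and dim or below the floor elsewhere. Tnni2 and Acta1 were about equally bright in ALCAM+ and double-negative cells and below the floor in Sca-1+ cells, and Tnnt3 was dim with its highest value in double-negative cells. Myl1, Ckm, Mybph, Myod1 and Myf5 were not above the floor in any population. At least 4-fold higher in ALCAM+ cells than in double-negative cells were 2 of the 10, and 0 were lower, where over the 12644 genes above the floor in some population (measured genes) the shares were 2.01% higher and 2.67% lower. Against Sca-1+ cells, 4 of the 10 were higher in ALCAM+ cells and 0 lower, with 3.99% and 5.86% over all measured genes. In Sca-1+ against double-negative cells 0 were higher and 2 lower, with 5.46% and 4.71% over all measured genes. Since only 5 of the 10 exceeded the floor at all and the genes were chosen from these results, nothing is read from these shares.

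**Figure D1:**
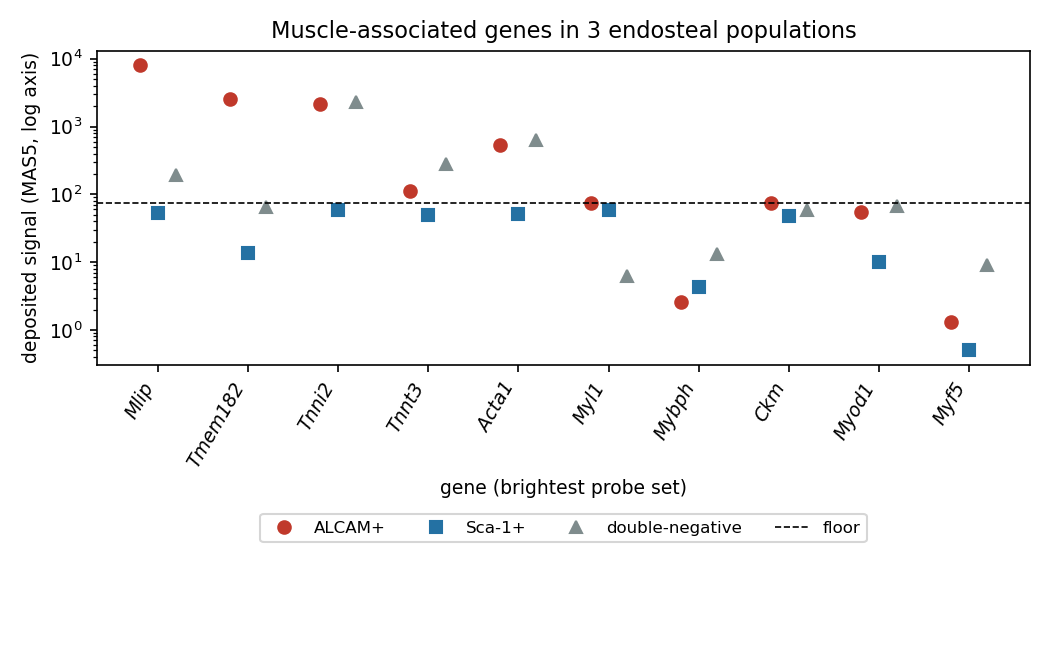
Deposited signal (log axis) of the 10 muscle-associated genes in ALCAM+ (circles), Sca-1+ (squares) and double-negative cells (triangles), 1 array each, with the floor of 75.4 as a dashed line. Mlip reaches 8079.6 in ALCAM+ cells only, Tnni2 reaches 2175 in ALCAM+ and 2288 in double-negative cells, and the last 5 genes stay at or below the line.

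Mlip, the gene of the lamin-binding protein, gave a signal of 8079.6 in ALCAM+ cells, 53.2 in Sca-1+ cells and 194 in double-negative cells. ALCAM+ cells were therefore alone in having a bright signal. The gene was 41.6-fold higher there than in double-negative cells and at least 107-fold higher than in Sca-1+ cells. Between the other two populations double-negative cells were higher by at least 2.57-fold, a lower bound that cannot be placed on either side of the yardstick of that comparison. A second probe set annotated to Mlip read 0.5, 1.4 and 2.6 on the same arrays, so the result rests on a single probe set, and averaging the pair after flooring reduced the log2 difference between ALCAM+ and double-negative cells from 5.38 to 2.69.

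Tmem182, the gene of the fusion-restraining membrane protein, gave 2536 in ALCAM+ cells, 13.8 in Sca-1+ cells and 65.9 in double-negative cells. It was higher by at least 33.6-fold in ALCAM+ cells than in either other population, both of which were below the floor and were given no order. Its only probe set on the array carried this result. With a floor raised to the pooled 75th percentile, the log2 difference from double-negative cells was 2.55 in place of 5.07.

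Tnni2 encodes the inhibitory troponin subunit of fast fibres, and the protein has also been found in cartilage. It gave 2175 in ALCAM+ cells, 57.8 in Sca-1+ cells and 2288 in double-negative cells. ALCAM+ and double-negative cells differed by 1.05-fold, well within the 2.13-fold yardstick, and both were far above Sca-1+ cells. Against Sca-1+ cells the gene was higher by at least 28.8-fold in ALCAM+ cells and by at least 30.3-fold in double-negative cells. Another probe set showed the same pattern, with 1218, 43.0 and 1362, and the remaining one stayed between 5.4 and 12.1.

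Acta1, which encodes the actin of skeletal muscle thin filaments, gave 528.5 in ALCAM+ cells, 51.2 in Sca-1+ cells and 627 in double-negative cells. As with Tnni2, ALCAM+ and double-negative cells differed by less than the yardstick, here by 1.19-fold, and Sca-1+ cells were below the floor. Against Sca-1+ cells the gene was higher by at least 7.01-fold in ALCAM+ cells and by at least 8.32-fold in double-negative cells. Neither difference reached 4-fold with a floor set to the pooled 75th percentile, where the log2 differences were 0.28 for ALCAM+ against Sca-1+ cells and -0.53 for Sca-1+ against double-negative cells. Actin genes are close in sequence, and whether this probe set also detected another actin was not tested.

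Tnnt3, the fast fibre gene of the troponin subunit that anchors the complex to tropomyosin, gave 110.4 in ALCAM+ cells, 49.6 in Sca-1+ cells and 279 in double-negative cells. Double-negative cells were the highest, 2.53-fold above ALCAM+ cells and at least 3.70-fold above Sca-1+ cells. Both are larger than the yardstick, which held only genes above the floor on all arrays, so scatter at such low signals was not measured. The first difference lies under 4-fold, and the second is a lower bound that did not pass the 4-fold rule. Tnni2 and Tnnt3 were both below the floor in Sca-1+ cells, and whether their differences between ALCAM+ and double-negative cells were unlike was not tested.

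Tnni2 and Tnnt3 lie close together on chromosome 7, with 1 protein-coding gene, Lsp1, between them in the GRCm38.p6 annotation. The protein-coding neighbour beyond Tnni2, the synaptotagmin gene Syt8, gave 1028 in ALCAM+ cells, 67.1 in Sca-1+ cells and 3094 in double-negative cells. Like both troponin genes it was below the floor in Sca-1+ cells. Lsp1, a gene of white blood cells, gave 1655, 5648 and 6786 in these populations, and Mrpl23, the mitochondrial ribosome gene beyond Tnnt3, gave 2949, 2538 and 2479. The low value in Sca-1+ cells was thus not shared along the whole stretch.

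The remaining members were at or below the floor everywhere. Ckm, which encodes the creatine kinase that buffers ATP in muscle and is among the most abundant fibre transcripts, came closest, at 75.2 in ALCAM+ cells, 48.3 in Sca-1+ cells and 59.2 in double-negative cells for its brighter probe set. Its other probe set read 8.0, 22.6 and 50.9, which is a different order. Myl1, the gene of an essential light chain of fast myosin, gave 74.8, 58.0 and 6.3, so that Ckm and Myl1 lay just under the floor and Tnnt3 in ALCAM+ cells just over it. Myod1, the muscle-commitment factor gene, gave 55.5, 10 and 68.0 with its brighter and 15.4, 10.8 and 21.3 with its dimmer probe set. Mybph, which encodes a thick filament binding protein, stayed between 2.6 and 13.1, and Myf5 between 0.5 and 9.0. No order among populations is read from these values. With a lower floor of 21.1, the pooled 25th percentile, 8 members were above it on some array, and none of the 3 added, Ckm, Myl1 and Myod1, passed the 4-fold rule. After quantile normalization 7 members were above the floor, as Ckm and Myl1 in ALCAM+ cells moved just over it, by 0.02 and 0.01 on the log2 scale.

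Sequences upstream of the gene starts are shown because Mlip and Tmem182 moved together, Acta1 followed another pattern and Ckm stayed below the floor. RefSeq's promoter table for GRCm38.p6 held 7 of the 10 genes, and Tnni2, Tnnt3 and Myod1 were not analysed here. Each sequence below covers the 250 bases before the start given in the table, 5′ to 3′ on the gene's strand, and capitals mark the E-box form CAGCTG, a known target of the Myod1 family, and, in Acta1, a CArG box, the target of serum response factor. The Mlip sequence is that of the first of its 2 starts, which are 14 bases apart. The regions are chr9:77347871-77348120 (minus strand) for Mlip, chr1:40805351-40805600 (plus) for Tmem182, chr8:123894776-123895025 (minus) for Acta1 and chr7:19410844-19411093 (plus) for Ckm.
Mlip: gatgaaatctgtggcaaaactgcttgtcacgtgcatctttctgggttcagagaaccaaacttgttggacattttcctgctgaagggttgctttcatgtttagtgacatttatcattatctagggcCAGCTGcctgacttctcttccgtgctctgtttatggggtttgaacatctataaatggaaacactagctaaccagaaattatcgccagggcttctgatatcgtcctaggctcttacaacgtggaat
Tmem182: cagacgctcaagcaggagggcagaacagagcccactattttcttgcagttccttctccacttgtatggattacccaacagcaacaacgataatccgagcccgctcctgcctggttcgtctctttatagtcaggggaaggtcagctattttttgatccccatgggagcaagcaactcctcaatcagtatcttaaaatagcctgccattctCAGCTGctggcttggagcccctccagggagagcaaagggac
Acta1: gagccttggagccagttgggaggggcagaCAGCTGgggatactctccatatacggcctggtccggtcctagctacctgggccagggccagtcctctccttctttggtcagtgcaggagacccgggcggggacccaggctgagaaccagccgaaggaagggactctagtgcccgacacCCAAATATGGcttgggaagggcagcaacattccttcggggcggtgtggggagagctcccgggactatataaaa
Ckm: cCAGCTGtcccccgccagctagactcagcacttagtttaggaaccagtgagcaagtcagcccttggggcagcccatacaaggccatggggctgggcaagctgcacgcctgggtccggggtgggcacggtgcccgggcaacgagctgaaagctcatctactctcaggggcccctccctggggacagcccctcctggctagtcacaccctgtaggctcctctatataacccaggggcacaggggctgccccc

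CAGCTG, which reads the same on both strands and is 1 form of the general E-box CANNTG, occurred in 6 of the 7 upstream sequences. Myf5 was the exception. In Mlip its first base lay 125 bases before the start, in Tmem182 41, in Acta1 221, in Myl1 224, in Mybph 79 and in Ckm 249. Among all 32851 upstream sequences of this length, 13.0% held CAGCTG, 66.2% held CANNTG and 1.47% a CArG box on either strand. Genes with CAGCTG included those bright in ALCAM+ cells, Acta1 with its shared pattern and 3 genes below the floor, so the match did not separate the patterns. A match of letters is not a measured binding site, and the genes were known muscle genes before these sequences were searched.

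Set beside markers of bone and cartilage cells, the members above the floor took different places. Of 11 osteoblast and osteocyte markers on the array, 4 were higher by at least 4-fold in ALCAM+ cells than in double-negative cells and 10 at least 4-fold higher in ALCAM+ cells than in Sca-1+ cells, with 0 lower in either. Their summed signal was 203760 in ALCAM+ cells, 14721 in Sca-1+ cells and 84345 in double-negative cells, with only Mepe below the floor in all of them. Within the list both patterns occurred. Dmp1, a matrix gene of osteocytes, gave 6431, 11.8 and 115 and Ifitm5, a bone-restricted gene, 7744, 90.2 and 319, so that both were far higher in ALCAM+ cells than elsewhere, like Mlip and Tmem182. Pth1r, the parathyroid hormone receptor gene, gave instead 28980.3, 1391 and 22562 and Smpd3, a gene needed for mineralization, 16148, 1182.5 and 14402, so that ALCAM+ and double-negative cells differed by 1.28-fold and 1.12-fold and both were well above Sca-1+ cells, as for Tnni2 and Acta1. The brightest of the list, Col1a1, the collagen gene of bone matrix, gave 49506, 7959 and 13081, and Ibsp, the bone sialoprotein gene, gave 37633, 161 and 18264. The 10 chondrocyte markers had a median log2 difference of 0.13 between ALCAM+ and double-negative cells. Of these, 2, Matn1 and Col10a1, were higher in ALCAM+ cells by 4.18-fold and 4.19-fold, 0 passed 4-fold after quantile normalization or under either scaling to control RNAs, and 0 were lower. In Sca-1+ cells 10 of 10 were lower by at least 4-fold than in either. Their summed signal was 245268 in ALCAM+ cells, 4811 in Sca-1+ cells and 208496 in double-negative cells. The brightest were the cartilage collagen genes Col9a1, with 41318, 502 and 35205, and Col2a1, with 33309.6 and 24959 in ALCAM+ and double-negative cells, and the chondromodulin gene Cnmd, with 33635, 344 and 35092. The low signal in Sca-1+ cells beside like signals in the other populations thus occurred for most cartilage markers and, in the bone list, for genes such as Pth1r and Smpd3. In the same bone list Dmp1, Ifitm5 and Phex were 56.1-fold, 24.3-fold and 14.3-fold higher in ALCAM+ than in double-negative cells. Which cells gave the Pth1r and Smpd3 signals was not tested. Whether the muscle-associated signals came from bone cells, cartilage cells or muscle cells in the sorts was not tested.

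**Figure D2:**
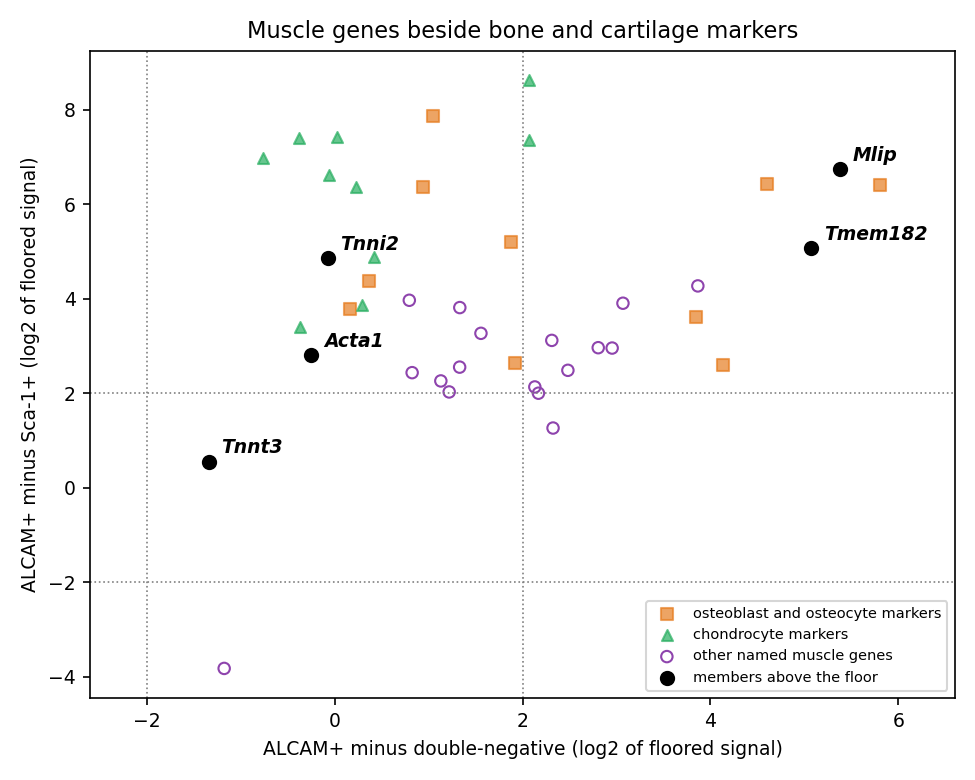
Each point is a gene, placed by its log2 difference between ALCAM+ and double-negative cells (horizontal) and between ALCAM+ and Sca-1+ cells (vertical), with dotted lines at 4-fold. Mlip (5.38 and 6.74) and Tmem182 (5.07 and 5.07) lie to the right with part of the osteoblast and osteocyte markers. Tnni2 (-0.07 and 4.85) and Acta1 (-0.25 and 2.81) lie above the middle, as do several osteoblast markers such as Pth1r (0.36 and 4.38). Chondrocyte markers all lie higher than Acta1 and most higher than Tnni2, from Sox9 (-0.37 and 3.41) to Col10a1 (2.07 and 8.62).

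By the distance between the 3 floored log2 signals, which counts level as well as differences, the measured genes nearest to Mlip were Cdh2, the N-cadherin gene (distance 0.42), Slc36a2, an amino acid transporter gene (0.43), and Fhod3, a formin gene known for building sarcomeres in the heart (0.72). Cdh2 gave 6178 in ALCAM+ cells, 55.6 in Sca-1+ cells and 172 in double-negative cells. Fhod3 gave 6136, 97.2 and 269, so that it too was high in ALCAM+ cells alone. When level was left out, a measure added after the data were seen, Dmp1 took the place of Fhod3 with a distance of 0.54. Nearest to Tnni2 were Lbh (0.17), Flvcr2, a heme and choline transporter gene (0.31), and Pak3, a kinase gene (0.60), and Lbh gave 2092, 69.0 and 2049. Likeness over 3 arrays is a description, and many genes can share so few values.

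Markers that define muscle fibres were mostly below the floor. Of 18 fibre markers on the array, 5 were above the floor in ALCAM+ cells, 2 in Sca-1+ cells and 5 in double-negative cells, and 11 were above it nowhere. Those 11 were Ckm, Myh1, Myh2 and Myh4, the fast myosin heavy chain genes, Tnnc2, the calcium-binding troponin gene of fast fibres, Pvalb, Mb, Neb, Ttn, Ryr1 and Cacna1s. The summed signal of the list was 3330.3 in ALCAM+ cells, 703 in Sca-1+ cells and 3961 in double-negative cells, of which Tnni2 alone made 2175, 57.8 and 2288. Mylpf, the fast regulatory light chain gene, gave 102.4, 41.7 and 251, the same order as Tnnt3. Actn3, Atp2a1 and Casq1 did not exceed 93.7 on any array. No fibre marker passed the 4-fold rule between ALCAM+ and double-negative cells.

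**Figure D3:**
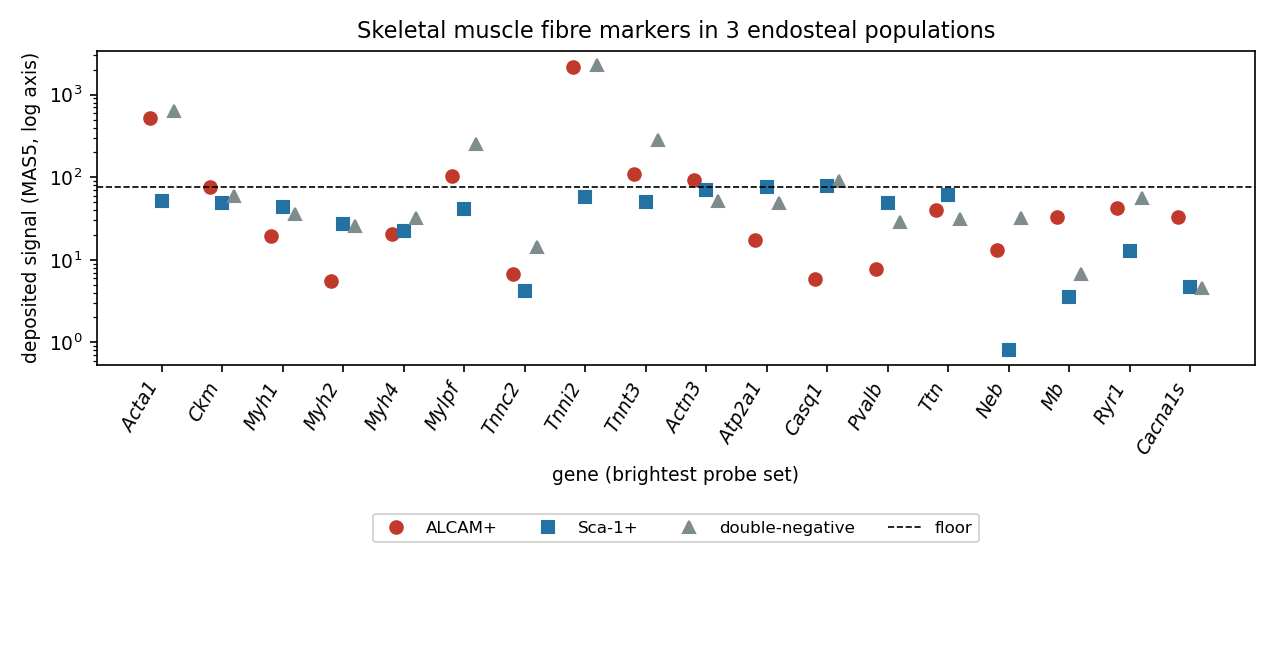
Deposited signal (log axis) of the 18 skeletal muscle fibre markers in ALCAM+ (circles), Sca-1+ (squares) and double-negative cells (triangles), 1 array each, with the floor as a dashed line. Tnni2 (up to 2288) and Acta1 (up to 627) stand clear of the line, Mylpf and Tnnt3 reach 251 and 279, and the myosin heavy chain genes lie below it.

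Markers of muscle stem cells and myoblasts divided. Pax7, Pax3, Myf5, Myod1, Myog, Mymk and Calcr, 7 of 11, were not above the floor in any population. The other 4 were Cdh15, Chrna1, Itga7 and Megf10. Cdh15, which encodes the M-cadherin of myoblasts, gave 1453 in ALCAM+ cells, 41.2 in Sca-1+ cells and 99.7 in double-negative cells. It was 14.6-fold higher in ALCAM+ cells than in double-negative cells, the same direction as Mlip and Tmem182. Megf10, a gene of satellite cells that other cell types also use, gave 273, 1179 and 111 and so was highest in Sca-1+ cells. The summed signal of the list was 3261 in ALCAM+ cells, 1530.4 in Sca-1+ cells and 770.5 in double-negative cells. Of 10 cardiac markers 8 were below the floor on the 3 arrays, and their summed signals were 611, 469.6 and 535. Of the 10 smooth muscle and pericyte markers, Tagln gave 189, 219 and 1768, with double-negative cells highest. Myh11 gave 2.0, 1.5 and 92.2, only a little above the floor in double-negative cells. Its other probe set was below the floor, at 32.3, 3.3 and 8.9. Acta2, the smooth muscle actin gene, gave 970.7, 3821 and 3532. Its Sca-1+ and double-negative signals differed by 1.08-fold, within the 2.64-fold yardstick. Rgs5, a pericyte gene, gave 58.6, 2333 and 276 and was 8.45-fold higher in Sca-1+ cells than in double-negative cells. The summed signals of the list were 12012, 10522 and 17547. Cspg4 alone made 8932 of the sum in ALCAM+ cells and 10408 in double-negative cells, and Acta2 led in Sca-1+ cells. The median signals were 37.8, 123.45 and 184.15, so that ALCAM+ cells were lowest by the median. Which cells gave the Cspg4 signal was not tested.

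A wider list of 121 genes of striated muscle, which includes the 10 and of which 117 were named on the array, had 53 measured genes, those that exceeded the floor in some population. At least 4-fold higher in ALCAM+ cells than in double-negative cells were 11 of the 53, and 0 were lower, where 2.01% and 2.67% of all measured genes were, with a median log2 difference of 0.33 against -0.03 over all measured genes. Against Sca-1+ cells 18 were higher in ALCAM+ cells and 1 lower, where 3.99% and 5.86% of all measured genes were, with medians of 1.07 and -0.01. In Sca-1+ against double-negative cells 1 was higher and 4 lower, where 5.46% and 4.71% of all measured genes were, with a median of 0 on both sides. The list was drawn up with earlier results known, so its direction is not independent evidence. By role, 3 of 17 thick filament genes were above the floor somewhere (Myl3, Mylpf and Myom1), 7 of 14 thin filament, 7 of 16 Z-disc and titin, 9 of 17 calcium handling, 6 of 13 energy metabolism, 5 of 11 regulator, 7 of 12 myoblast surface and junction, and 9 of 17 membrane, turnover and lamina genes.

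**Figure D4:**
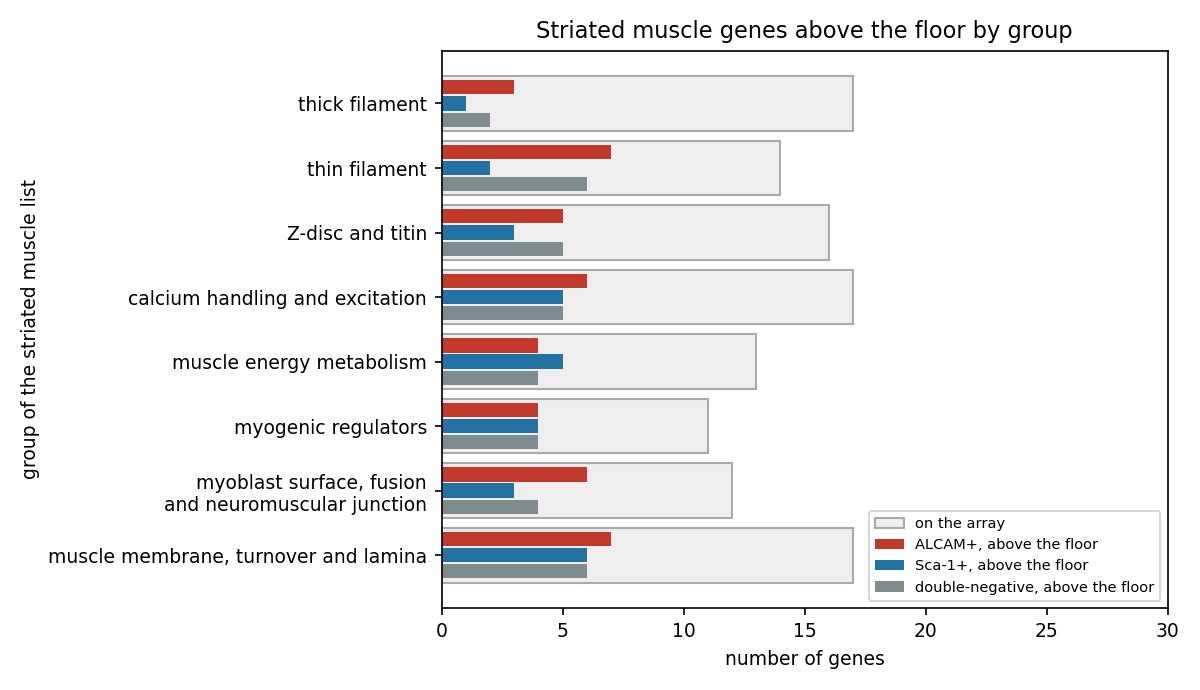
Number of genes above the floor in ALCAM+ (red), Sca-1+ (blue) and double-negative cells (grey) for each group of the striated muscle list, drawn over the number on the array (pale bars). Thick filament genes have the fewest above the floor, 3 of 17 in ALCAM+ cells, 1 in Sca-1+ cells and 2 in double-negative cells.

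Among thick filament genes none passed the 4-fold rule in any comparison. Of the thin filament genes besides the members, Tpm1, a tropomyosin gene used in many cell types, gave 7052 in ALCAM+ cells, 1205 in Sca-1+ cells and 2805 in double-negative cells. It was 5.85-fold higher in ALCAM+ cells than in Sca-1+ cells. At the Z-disc, Mypn, the myopalladin gene, gave 1177, 1.6 and 679 and Myoz2, a calsarcin gene of heart and slow muscle, 724.9, 65.7 and 246. Both were highest in ALCAM+ cells and below the floor in Sca-1+ cells, and neither differed by 4-fold between ALCAM+ and double-negative cells.

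Of the 17 calcium handling genes, 9 were above the floor somewhere. At least 4-fold higher in ALCAM+ cells than in both other populations were 3, and 0 were lower than in either. Over all measured genes 2.01% were higher and 2.67% lower than in double-negative cells, and 3.99% and 5.86% than in Sca-1+ cells. The share for both comparisons at once was not computed. Hrc, which encodes a calcium-binding protein of the sarcoplasmic reticulum, gave 1127 in ALCAM+ cells, 65.2 in Sca-1+ cells and 134 in double-negative cells. It was 8.39-fold higher in ALCAM+ cells than in double-negative cells. Srl, the sarcalumenin gene of the same compartment, was 6.99-fold higher, at 587 against 84.0. Stac3, whose product couples the surface calcium channel to release, was at least 4.38-fold higher, at 330.1 in ALCAM+ cells. Its difference stayed at least 4-fold under 4 of 7 alternative ways of processing. The channels themselves were not above the floor: Ryr1 stayed between 12.8 and 55.5 and Cacna1s between 4.5 and 33.0.

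Of the energy genes, Pygm, the glycogen phosphorylase gene of muscle, gave 584 in ALCAM+ cells, 59.8 in Sca-1+ cells and 63.6 in double-negative cells and was higher by at least 7.75-fold in ALCAM+ cells than in both. Fabp3, a fatty acid carrier gene, was 4.96-fold higher in ALCAM+ cells than in double-negative cells and 8.67-fold higher than in Sca-1+ cells. These differences stayed at least 4-fold under 3 and 5 of 7 alternatives, and the other Fabp3 probe set gave 123.1, 25.7 and 84.9. Eno3, the muscle enolase gene, was 4.07-fold higher in ALCAM+ cells than in Sca-1+ cells. Ckm, listed in the same energy group, was not above the floor. Among the regulators Mef2c, a transcription factor gene of muscle that bone and cartilage cells also use, gave 11771, 839 and 4676. It was 14.0-fold higher in ALCAM+ and 5.57-fold higher in double-negative than in Sca-1+ cells, and the 4 other probe sets above the floor were also highest in ALCAM+ cells.

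At the myoblast surface and the nerve junction, Chrna1, an acetylcholine receptor subunit gene, gave 421 in ALCAM+ cells, 5.3 in Sca-1+ cells and 65.8 in double-negative cells. It was higher by at least 5.59-fold in ALCAM+ cells than in both. Itga7, the laminin-binding integrin gene of muscle, was 4.50-fold higher in ALCAM+ cells than in double-negative cells, and Dok7, an adaptor gene of the junction, at least 5.40-fold higher in ALCAM+ cells than in Sca-1+ cells. These differences stayed at least 4-fold under 4 and 2 of 7 alternatives. The other Dok7 probe set was below the floor, at 21.3, 40.3 and 50.1. Mymk and Mymx, which drive myoblast fusion, stayed at 3.3 or below. In the membrane and turnover group Fbxo32, a ubiquitin ligase gene of muscle wasting, was higher by at least 5.01-fold in ALCAM+ cells than in double-negative cells, and Cav3, the muscle caveolin gene, was 4.78-fold higher in ALCAM+ cells than in Sca-1+ cells. These differences stayed at least 4-fold under 3 and 4 of 7 alternatives. Dmd, the dystrophin gene, went the other way, with 58.2 in ALCAM+ cells, 1070.1 in Sca-1+ cells and 170.4 in double-negative cells. Of the 17 genes other than members that differed by 4-fold, 16 were highest in ALCAM+ cells and Dmd was the exception. How many of all measured genes that differed by 4-fold were highest in ALCAM+ cells was not counted, so nothing is read from this number.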

How the data were processed

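Total RNA of each population was amplified in 2 cycles, labelled with biotin and hybridized to 1 array, per the labels' protocols. The authors deposited signal intensities on a linear scale, and the submitters' processing notes name MAS5, without a version. All 3 arrays already shared a 2% trimmed mean of 500, and no scaling was added. The number of arrays limits the precision. Probe sets were named from the array's annotation and updated through Entrez identifiers of a RefSeq table (34754 of 34958 found, 0 symbols changed). Signals were raised to the floor of 75.4 and turned to log2. Named were all members, the other genes of the striated muscle list that differed at least 4-fold (up to 6 per role), up to 3 of the brightest markers per cell type and the 3 genes nearest to Mlip and to the brightest filament member. Other genes were named after their values were seen. The members, lists and rules were chosen with earlier results of these data known. The alternatives were quantile normalization, scaling to poly-A or hybridization controls, floors at other percentiles, averaged probe sets, leaving out probe sets that can detect several genes, and a 2-fold rule. Counting was tested on simulated data. Python 3.11.15, numpy 2.4.6 and pandas 2.3.3 were used.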

Additional observations from a re-analysis of the deposited data

How the results depend on the processing

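With 1 array per population no difference has a test, and no array could be left out. No paired analysis was possible because each population has 1 array. Of 8 called differences of the members none changed direction under 7 alternatives, and 6 stayed at least 4-fold under each; both of Acta1 were lost with a floor of the pooled 75th percentile. Of 27 called differences of the other named muscle genes, 2 (Mef2c) stayed at least 4-fold under each and 0 reversed. Little is read from the lack of reversals. A changed floor cannot reverse a sign, and control scaling moved differences by less than the log2 size of 2 that a call needs. With a 2-fold rule, 1 member was lower in ALCAM+ and 4 lower in Sca-1+ cells than in double-negative cells, and with the 75th percentile floor 1 was lower in Sca-1+ cells. For the striated muscle list the genes higher in ALCAM+ cells than in double-negative cells numbered 7 under scaling to the poly-A or the hybridization controls, 2 with the 75th percentile floor and 22 at 2-fold, and those lower 1 with the 25th percentile floor and 4 at 2-fold. In Sca-1+ against double-negative cells 3 were higher under either control scaling and with the 25th percentile floor, 0 with the 75th and 5 at 2-fold, and 2 were lower with the 75th and 13 at 2-fold. In ALCAM+ against Sca-1+ cells 5 were higher with the 75th and 28 at 2-fold, and 4 were lower under either control scaling and at 2-fold, 3 with the 25th, 0 with the 75th and 0 with probe sets averaged. Over all 12644 measured genes, the 2-fold rule called 845 higher and 1338 lower in ALCAM+ against double-negative cells. It called 1894 and 1606 in Sca-1+ against double-negative cells, and 1416 and 1999 in ALCAM+ against Sca-1+ cells. With the 75th percentile floor the 3 pairs, of 8423 measured genes, were 122 and 86, 345 and 223, and 256 and 356. With the 25th they were 377 and 584, 911 and 880, and 730 and 1019 of 16652. Scaling to the poly-A controls moved the median log2 difference of all measured genes to -0.49, 0.25 and -0.78 in the 3 comparisons (hybridization controls -0.43, 0.25 and -0.72), so that 162 genes were higher and 584 lower in ALCAM+ cells than in double-negative cells (254 and 338 as deposited) and 279 and 1514 against Sca-1+ cells (504 and 741). On that scale the log2 difference of ALCAM+ against double-negative cells was -0.60 for Tnni2 and -0.78 for Acta1. In Sca-1+ against double-negative cells it made 957 genes higher and 513 lower (690 and 595 as deposited).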

Other observations

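Tendon markers, which sit where muscle meets bone, were above the floor in all 3 populations for 6 of 6 genes. Kera, the keratocan gene, gave 1117 in ALCAM+ cells, 8926 in Sca-1+ cells and 3683 in double-negative cells, and Thbs4, a matrix gene of tendon, gave 5526, 21338 and 16505. Their Sca-1+ signals exceeded those in double-negative cells by 2.42-fold and 1.29-fold, within the 2.64-fold yardstick. All 5 muscle-associated genes above the floor elsewhere lay below it in Sca-1+ cells. Fmod, the fibromodulin gene, gave 30315, 30224 and 37027, so that the populations differed by at most 1.23-fold. The fibroblast progenitor markers were higher by at least 4-fold in Sca-1+ cells than in double-negative cells for 10 of 10 genes, with summed signals of 6823 in ALCAM+ cells, 113031 in Sca-1+ cells and 3189 in double-negative cells. Pdgfra alone made 5122 of the sum in ALCAM+ cells, and the median signal of the list was 50.45 there and 262.55 in double-negative cells. Erythroid markers had summed signals of 426, 334 and 17489, and 6 of 8 were at least 4-fold lower in ALCAM+ cells than in double-negative cells. The globin gene Hba-a1 was below the floor throughout, at 43.6, 39.7 and 20.2, with a single probe set. Hbb-bt, also on the list, had no named probe set, and the 932 probe sets with several gene symbols were left out. Globin RNA as a whole was therefore not measured here. Tnnt3 and Mylpf also had their highest values in double-negative cells, and whether this is linked to the erythroid markers was not tested.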
